A study of Mus musculus with 6 samples.

Results

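Chromosomes 5, 7, 13, 14 and 18 of the GRCm38 mouse genome were cut into windows of 2 Mb from position 1, and each gene of the count table was placed in a window by its annotated start. A window was kept if at least 1 of its genes had a mean of 1 CPM (counts scaled to a common library size) or more over the 6 libraries. Of 314 windows that held a gene row, 276 were kept and 38 were not, and the kept windows were 66, 64, 56, 48 and 42 on chromosomes 5, 7, 13, 14 and 18. The autosomes and the X chromosome together had 1145 such windows. The chromosomes were chosen by the median log2 ratio of knockout over wild-type levels of their genes, so every median of that ratio below is a description and carries no test. The libraries came from TKO (triple knockout) mouse ovarian cancer cells, a cell line whose 3 deleted genes are not named in the labels and are shared by all libraries. The 3 KO libraries were from cells with MNRR1 knocked out, all given 1 clone name, and the 3 WT libraries were from TKO cells with MNRR1 intact. Whether the replicates were separate cultures is not said in the labels, and their spread may be technical.

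Mouse chromosomes are numbered from the centromere end, and each carries its genes on a single long arm. As background, RNA levels of many neighbouring genes can move together when a chromosome or a stretch of it is gained or lost, when a domain of chromatin changes state, or when a cluster of related genes shares its regulators. Cultured tumour lines are known for variable chromosome content, and clones grown from single cells can differ in it. The windows ask whether the shift of a chromosome was carried by its whole length or by a stretch of it. MNRR1, encoded by Chchd2 on chromosome 5, is a protein of mitochondria and nucleus.

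Promoters of chromosome 13 are shown for genes from a stretch with high window medians and from the lowest window, though other single genes changed more. Zfp808 and Zfp729a encode zinc finger proteins and lie in the stretch that held the chromosome's only windows of 5 or more genes with medians above those of other autosomes. Il6st, which encodes the shared cytokine receptor chain gp130, and Mtrex, which encodes an RNA helicase of the nuclear exosome, lie in the lowest window. The sequences are 300 bases each from RefSeq on GRCm38.p6, written 5′ to 3′ on the gene's strand, with GC boxes (GGGCGG) and CCAAT boxes (CCAAT) of either strand in capitals. Their positions are chr13:62129640-62129939 (plus strand), chr13:67637732-67638031 (minus strand), chr13:112463820-112464119 (plus strand) and chr13:112927331-112927630 (minus strand), in the order printed.
Zfp808: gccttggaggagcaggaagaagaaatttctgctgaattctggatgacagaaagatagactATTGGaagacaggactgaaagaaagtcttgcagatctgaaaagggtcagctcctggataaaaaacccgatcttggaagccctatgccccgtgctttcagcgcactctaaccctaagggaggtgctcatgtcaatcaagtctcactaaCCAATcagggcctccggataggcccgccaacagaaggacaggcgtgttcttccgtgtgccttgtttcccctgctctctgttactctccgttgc
Zfp729a: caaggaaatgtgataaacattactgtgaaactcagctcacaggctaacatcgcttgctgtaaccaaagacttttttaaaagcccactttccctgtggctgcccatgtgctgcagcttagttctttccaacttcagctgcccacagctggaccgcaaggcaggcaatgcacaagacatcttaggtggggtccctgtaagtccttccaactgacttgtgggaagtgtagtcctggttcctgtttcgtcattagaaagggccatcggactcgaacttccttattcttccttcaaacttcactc
Il6st: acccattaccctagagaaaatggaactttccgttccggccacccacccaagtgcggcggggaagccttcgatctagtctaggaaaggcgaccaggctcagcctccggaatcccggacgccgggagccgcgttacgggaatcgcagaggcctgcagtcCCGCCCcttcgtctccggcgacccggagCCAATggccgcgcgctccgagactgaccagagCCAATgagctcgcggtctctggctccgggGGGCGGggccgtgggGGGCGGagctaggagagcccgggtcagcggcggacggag
Mtrex: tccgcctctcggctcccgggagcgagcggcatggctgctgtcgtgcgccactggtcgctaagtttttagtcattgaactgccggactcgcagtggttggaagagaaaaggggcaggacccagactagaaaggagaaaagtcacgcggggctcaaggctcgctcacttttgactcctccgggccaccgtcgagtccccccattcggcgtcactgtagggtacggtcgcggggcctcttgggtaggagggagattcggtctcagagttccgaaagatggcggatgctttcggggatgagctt

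The Zfp808 promoter held 8 CG dinucleotides and 2 CCAAT boxes, and its GC content was 50.3%. The Zfp729a promoter held 5 CG dinucleotides and neither motif, at 47.7% GC. The Il6st promoter held 33 CG dinucleotides, 3 GC boxes and 2 CCAAT boxes at 68.3% GC, and the Mtrex promoter held 25 CG dinucleotides and neither motif at 60.3% GC. Over all 32851 promoters of that length, 35.7% held a GC box, 37.4% held a CCAAT box, the median was 7 CG dinucleotides and the median GC content was 52.7%. A match describes the letters of the window only, and the 4 promoters were chosen after the values of their genes were seen. Of the 10 Zfp genes of that stretch that were called higher, 9 had an entry among the promoters, and Zfp369 had none.

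Chchd2 checked the labels. It was at 16.6, 17.6 and 17.0 CPM in KO replicates 1 to 3 and at 367, 349 and 340 CPM in WT replicates 1 to 3, so the genotypes did not overlap. Total counts ran from 33226463 to 40983999 per library. Many cell markers differed between genotypes without overlap. Among 5 epithelial markers, the keratin genes Krt8 (264 to 322 CPM in KO, 423 to 487 CPM in WT), Krt18 (275 to 300 and 358 to 415 CPM) and Krt7 (77.3 to 96.3 and 262 to 308 CPM) were lower in KO, and Epcam (2.11 to 3.10 CPM) and Cdh1 (0.327 to 0.632 CPM) were low in both and overlapped. Among 5 mesothelial and ovarian markers, Msln (105 to 121 CPM in KO, 260 to 277 CPM in WT) and Gata4 (10.2 to 11.96 and 26.8 to 34.4 CPM) were lower. Muc16 (333 to 498 and 273 to 311 CPM) was higher, and Wt1 (666 to 735 CPM) overlapped. Pax8 was low in both but lower in KO without overlap (0 to 0.050 CPM in KO, 0.113 to 0.515 CPM in WT). Both mesenchymal markers were lower in KO, Vim at 175 to 329 against 558 to 644 CPM and Col1a1 at 8.81 to 12.9 against 124 to 133 CPM. The part of these markers in the results below was not tested. The leukocyte marker Ptprc and the endothelial marker Cdh5 did not exceed 0.255 CPM in any library. Ptprc was lower in KO without overlap (0 to 0.0545 CPM in KO, 0.0976 to 0.255 CPM in WT), and Cdh5 overlapped. Pecam1, the other endothelial marker, was low in both but higher in KO without overlap (0.350 to 0.436 CPM in KO, 0.226 to 0.342 CPM in WT). The macrophage marker Cd68 was at 2.68 to 3.38 CPM in the KO libraries against 4.002 to 5.49 CPM in WT.

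Levels below are CPM after TMM scaling (trimmed mean of M values), given per library or as mean ± SD (n = 3 per genotype). Changes are log2 ratios, KO over WT, from the fitted model. A gene was called at an adjusted p under 0.05 in edgeR's quasi-likelihood test with Benjamini-Hochberg adjustment over all genes tested. Chromosome and window medians were taken over genes of mean CPM of 1 or more and set against the reference median, which is the median log2 ratio of 9310 such genes on the 14 other autosomes, 0.01. RNA of whole cultures was counted, so fewer cells of a type and less RNA per cell cannot be told apart.

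Genes of chromosome 13 were lowest, at a median of -0.31 relative to the reference over 422 genes, and genes of chromosome 5 (869 genes) and chromosome 14 (402 genes) were lower at -0.18 and -0.10. Genes of chromosome 18 (333 genes) and chromosome 7 (974 genes) were higher at 0.14 and 0.11. On the 14 other autosomes the same quantity ran from -0.03 on chromosome 10 to 0.07 on chromosome 8. The middle 50% of genes, as unadjusted log2 ratios, ran from -0.58 to 0.05 on chromosome 13, from -0.42 to 0.16 on chromosome 5, from -0.39 to 0.21 on chromosome 14, from -0.18 to 0.51 on chromosome 7 and from -0.17 to 0.44 on chromosome 18, so the shifts were small beside the spread of single genes.

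**Figure D1:**
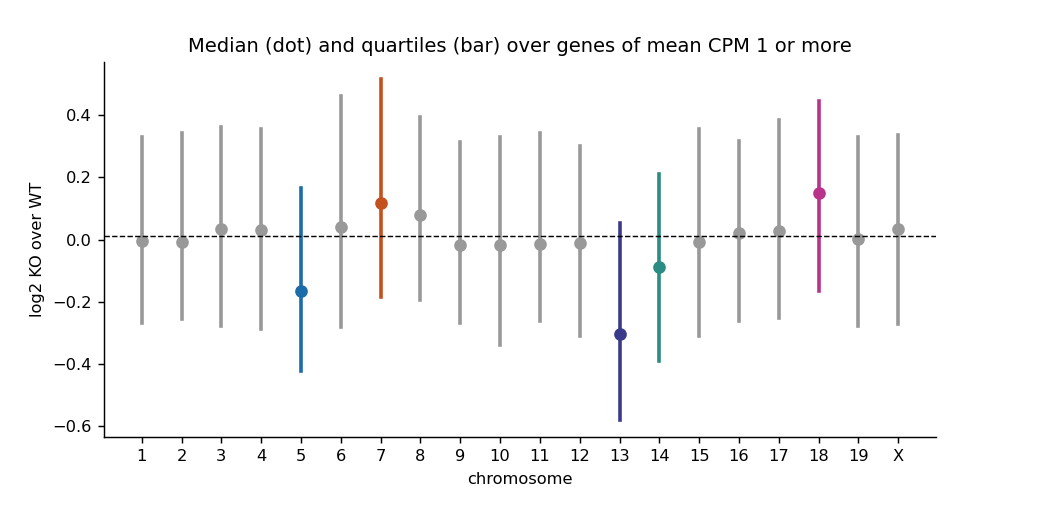
Median (dot) and quartiles (bar) of the fitted log2 KO over WT ratio of genes with mean CPM of 1 or more on each chromosome, with the 5 chromosomes studied in colour and the reference median as a dashed line. Chromosome 13 has the lowest dot, at -0.30, and chromosome 18 the highest of the 5, at 0.15.

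Called genes followed the same order. Over all 12708 genes of the autosomes and X, 31.0% were called higher and 31.6% lower in KO. On chromosome 13, 239 genes were lower and 60 higher (56.6% and 14.2%), and on chromosome 5, 394 were lower and 162 higher (45.3% and 18.6%). On chromosome 14, 160 were lower and 99 higher (39.8% and 24.6%). On chromosome 18, 152 were higher and 82 lower, and on chromosome 7, 378 were higher and 226 lower (38.8% and 23.2%). Nothing is read from these counts, because the contrast that gives them also chose the chromosomes. Together they come to 851 higher and 1101 lower genes, against 1081 higher and 837 lower with scaling by library totals, which raised the median of all fitted genes from 0.01 to 0.13. All relative medians below are set against a reference scaled the same way.

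Each KO library gave the same side for each chromosome. On chromosome 13 the medians of KO replicates 1 to 3, relative to the reference of the same library, were -0.29, -0.26 and -0.35. Chromosome 5 was at -0.18, -0.17 and -0.15, and chromosome 14 at -0.12, -0.10 and -0.10. All WT libraries lay within 0.01 of 0 on these 3 chromosomes, so the genotypes did not overlap. Chromosome 7 was at 0.11, 0.07 and 0.10, and chromosome 18 at 0.12, 0.13 and 0.12, again with WT libraries within 0.01 of 0. The 3 KO libraries share 1 clone, so this agreement is between libraries of that clone. Genotypes without overlap were also found among the other autosomes, at smaller distances. Chromosome 8 was at 0.06 to 0.08 in KO and -0.01 to 0.01 in WT libraries. Chromosome 10 was at -0.04 to -0.03 in KO and -0.001 to 0.002 in WT libraries, while on chromosome 1 the genotypes overlapped.

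**Figure D2:**
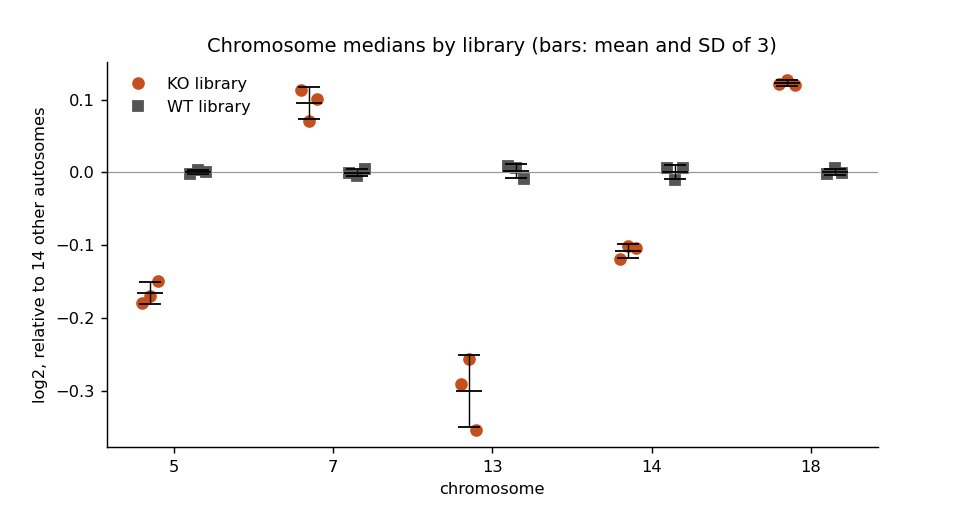
Median log2 ratio of each library on the 5 chromosomes, relative to the 14 other autosomes of the same library, with bars for the mean and SD of 3 libraries (circles KO, squares WT). KO libraries lie from -0.35 to -0.26 on chromosome 13 and from 0.12 to 0.13 on chromosome 18, and WT libraries lie near 0.

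Of the 276 windows, 193 held 5 or more genes, 54 held 2 to 4 and 29 held 1, and the median was 8 genes. Windows of 1 gene show that gene alone: the window of chromosome 5 from 18 to 20 Mb rested on Gnai1, a G protein subunit gene. It had 0, 0 and 1 reads in the KO libraries against 243, 222 and 259 in the WT ones, and its fitted ratio depends on the prior count and is no bound. Counts of windows below therefore cover the 193 windows with 5 or more genes, which held 2803 of the 3000 genes. The highest and lowest windows named for a chromosome are also taken from these, and some windows of fewer genes lay beyond them. At the edge of the rule, the window of chromosome 18 from 78 to 80 Mb was kept through Setbp1 (mean 1.03 CPM, log2 ratio 0.22), and the window of chromosome 5 from 70 to 72 Mb was left out because its highest gene, Gabrb1, reached 0.951 CPM (log2 ratio -0.31).

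Window medians were below the reference in 38 of 40 windows on chromosome 13, 42 of 47 on chromosome 5 and 23 of 31 on chromosome 14. They were above it in 16 of 26 windows on chromosome 18 and 28 of 49 on chromosome 7. A distance of more than 0.2 below the reference was reached by 15.1% of the 576 such windows on the 14 other autosomes, and a distance of more than 0.2 above it by 13.9%. On chromosome 13, 28 windows were past 0.2 below and 1 above, on chromosome 5 these counts were 23 and 0, and on chromosome 14 they were 8 and 1. On chromosome 7, 12 windows were past 0.2 above and 6 below, and on chromosome 18, 6 above and 2 below. Chromosomes 5 and 13 were thus low in most of their windows, while chromosomes 7 and 18 had windows well past the reference on both sides.

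The KO and WT libraries did not overlap in 58.2% of windows on the 14 other autosomes. The share was 35 of 40 windows on chromosome 13, 37 of 47 on chromosome 5, 31 of 49 on chromosome 7, 20 of 31 on chromosome 14 and 14 of 26 on chromosome 18. The SD of window medians was 0.23 on chromosomes 7, 13 and 18, 0.18 on chromosome 5 and 0.17 on chromosome 14, within the 0.15 to 0.28 of the other autosomes. Adjacent windows on chromosome 13 differed by a median of 0.13, against 0.22 for all pairs of its windows, and on chromosome 7 by 0.16 against 0.22. On chromosome 5 these values were 0.16 and 0.18, on chromosome 14 they were 0.12 and 0.15 and on chromosome 18 they were 0.17 and 0.22. On the other autosomes adjacent windows differed by 0.08 to 0.23 and all pairs by 0.14 to 0.23, ranges that held the values of all 5 chromosomes.

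**Figure D3:**
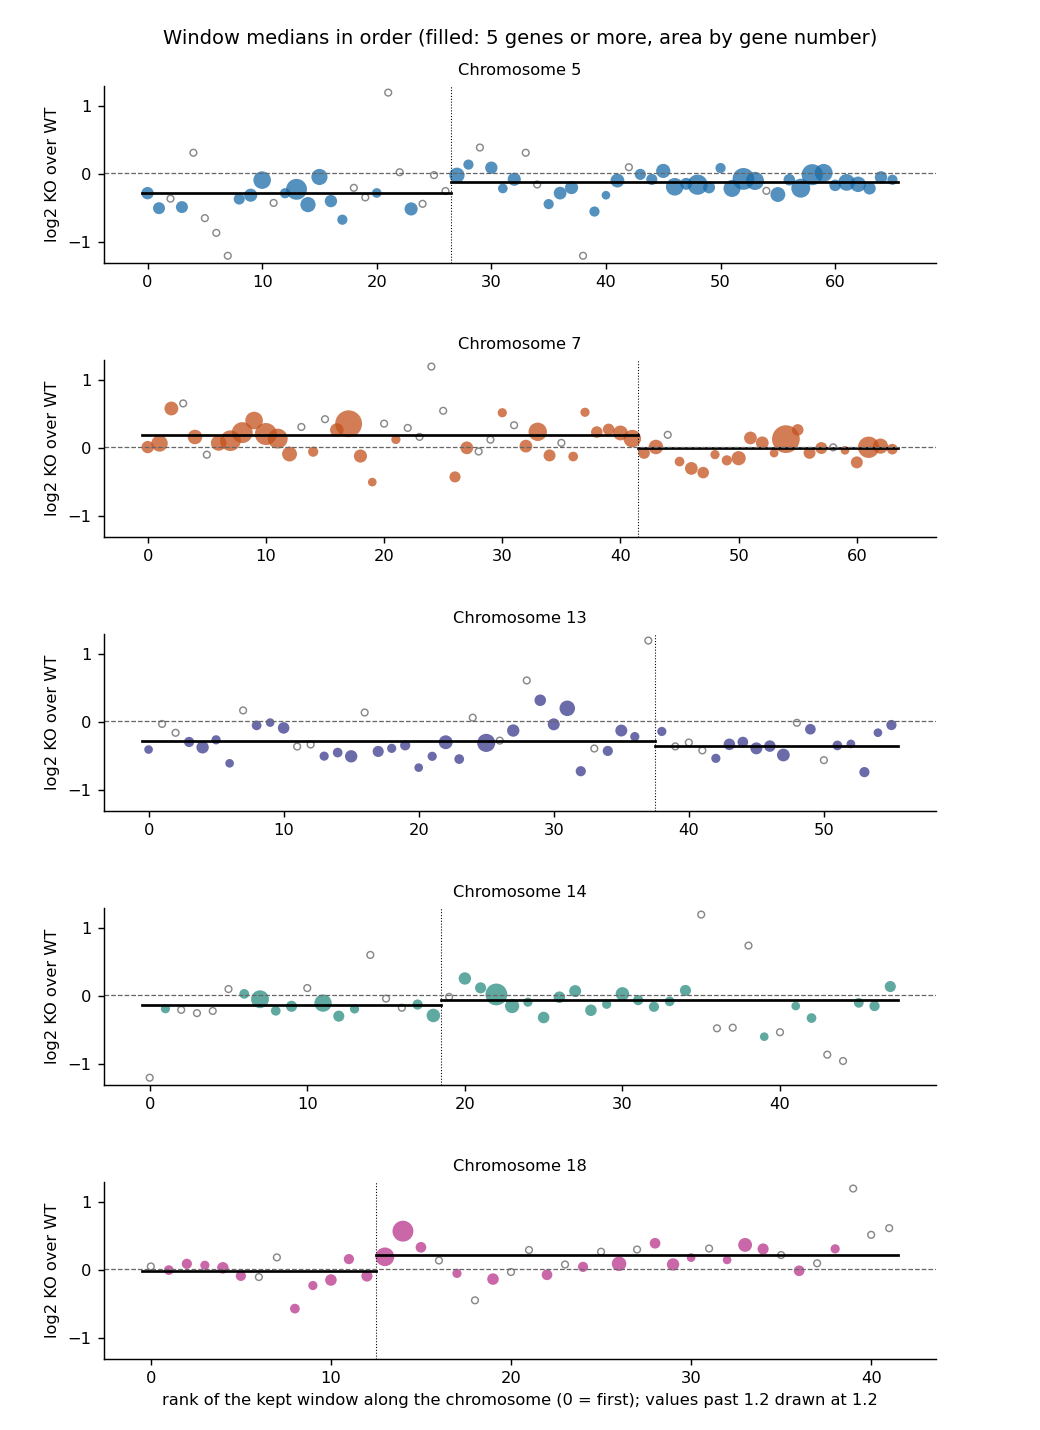
Median log2 KO over WT of each kept window in order along the 5 chromosomes, with filled circles for windows of 5 or more genes (area by gene number), open circles for smaller windows, the reference median dashed and the medians of both sides of the largest step as black lines. Values past 1.2 in either direction are drawn at 1.2. Nearly all filled circles of chromosome 13 lie under the dashed line, while those of chromosome 18 lie on both sides of it before the dotted boundary and mostly above it after.

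To ask whether a shift was even or segmental, the boundary that best divided each chromosome's genes into a left and a right side was found, with its step (right median minus left median) and the share of the summed absolute deviation it removed. On the 14 other autosomes the step found in this way had a size from 0.04 on chromosome 9 to 0.18 on chromosome 15, and it removed from 0.0801% to 1.37%. Chromosome 18 exceeded that range on both measures in the main analysis. Its 90 genes before 34 Mb had a median of -0.01 and its 243 genes after it had 0.23, a step of 0.23 that removed 2.32%. The place of the boundary was less firm than the step: it moved to 62 Mb with genes of at least 5 CPM, to 68 Mb without genes changed 4-fold and to 70 Mb without Zfp genes and protocadherins. Held at 34 Mb, the step was 0.17, 0.20 and 0.20 in these settings. The first of these values is under the 0.18 of chromosome 15, which is given for the main analysis only. In KO replicates 1 to 3 the step was 0.25, 0.17 and 0.21, and in WT libraries it was -0.01, 0.02 and -0.01.

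The steps of the other chromosomes were within or close to that range. Chromosome 7 had a median of 0.19 over 641 genes before 102 Mb and 0.00 over 333 genes after it, and this step of -0.19 removed 1.33%. In KO replicates 1 to 3 it was -0.18, -0.16 and -0.16. Chromosome 5 was lower before 64 Mb (-0.28, 252 genes) than after it (-0.12, 617 genes), and both sides were under the reference. Its step was 0.17, 0.16 and 0.19 in KO replicates 1 to 3 and removed 1.10%. On chromosome 13 the step was -0.08 at 80 Mb, but its place was not firm. With 1 library left out the boundary moved each time, to 52, 68 or 84 Mb. Without KO replicate 2 it was at 52 Mb, with a step of 0.08. It was at 28 Mb with genes of at least 5 CPM, at 68 Mb with protein-coding genes and at 26 Mb without Zfp genes. On chromosome 14 the step was 0.07 at 48 Mb, and without KO replicate 1 another boundary was found, at 86 Mb with a step of -0.11. Held at 80 and 48 Mb, the steps with 1 library left out ran from -0.08 to -0.06 on chromosome 13 and from 0.06 to 0.09 on chromosome 14. The step of chromosome 13 held at 80 Mb was -0.02 with genes of at least 5 CPM and -0.04 without Zfp genes.

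Expression level moved with the ratio in the data as a whole. On the 14 other autosomes the median log2 ratio was 0.16 for genes of 1 to 5 CPM, 0.16 for those of 5 to 20 CPM, 0.00 for those of 20 to 100 CPM and -0.12 for those of 100 CPM or more. Each chromosome was therefore compared with the other autosomes at the same level. Chromosome 5 differed by -0.16, -0.16, -0.18 and -0.17 in these 4 classes, from low to high, and was thus lower at every level. Chromosome 14 differed by -0.19, -0.10, -0.10 and -0.10, and chromosome 13 by -0.15, -0.33, -0.36 and -0.32. On chromosome 13 the smallest difference was in the lowest class, where 84 genes lay.

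Chromosome 7 departed from this. Its difference was 0.19 for 231 genes of 1 to 5 CPM and 0.09 for 268 genes of 5 to 20 CPM, but 0.01 for 321 genes of 20 to 100 CPM and 0.01 for 154 genes above that. Before 102 Mb, genes under 20 CPM were 0.22 above other autosomes and genes of 20 CPM or more 0.03 above. After 102 Mb the 2 values were -0.04 and 0.00, so the higher median of chromosome 7 lay in its less expressed genes of the first 102 Mb. Chromosome 18 differed by 0.26, -0.08, 0.14 and 0.16 from the lowest to the highest class. After 34 Mb its genes under 20 CPM were 0.24 and those of 20 CPM or more 0.22 above the other autosomes, and before 34 Mb the values were -0.03 and -0.04. The step of chromosome 18 was thus seen in genes of 20 CPM or more. It was also seen under 20 CPM, but those genes after 34 Mb included clustered protocadherins. Of these, 7 passed the filter of 1 CPM through the KO libraries and had to be higher there. The value under 20 CPM was not recomputed without the protocadherins.

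**Figure D4:**
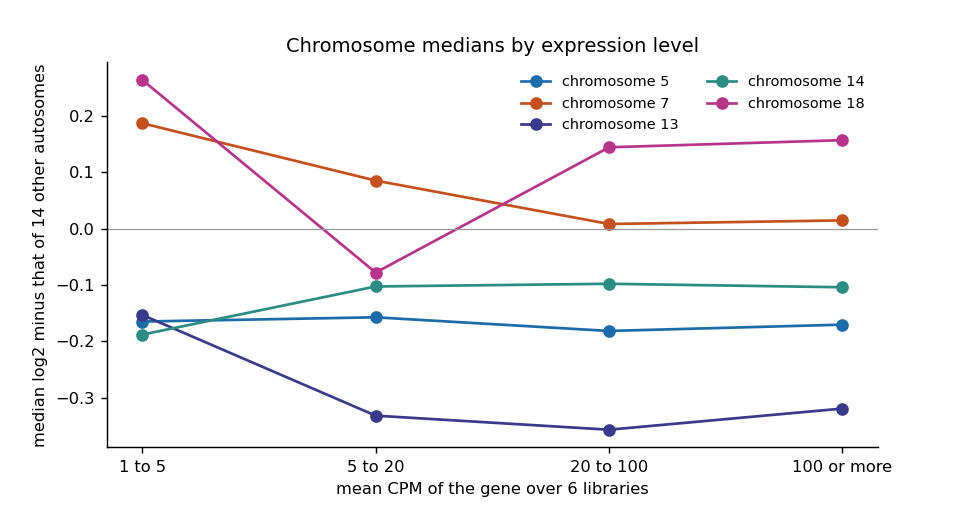
Median log2 KO over WT of genes in 4 classes of mean CPM on each of the 5 chromosomes, minus the median of the same class on the 14 other autosomes. Chromosome 5 stays between -0.18 and -0.16 in all classes, while chromosome 7 goes from 0.19 in the lowest class to 0.01 in the 2 highest.

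On chromosome 13, 20 windows of 5 or more genes in a row lay under the reference from 2 to 60 Mb. The lowest window was from 112 to 114 Mb, with a median of -0.74 over 8 genes, of which 7 were called lower and 1 higher, and with -0.71, -0.67 and -0.76 in KO replicates 1 to 3. Il6st (chr13:112464070-112510086), whose promoter is printed above, was at 177, 173 and 174 CPM in the KO libraries against 295, 297 and 287 CPM in the WT ones, with a log2 ratio of -0.75. All its KO values were under all its WT values. Mtrex fell from 178 ± 6.62 to 118 ± 13.2 CPM (-0.59), and Snx18, which encodes a sorting nexin of membrane traffic, fell from 96.5 ± 5.16 to 44.3 ± 5.86 CPM (-1.12). The window from 54 to 56 Mb, with 31 genes, had a median of -0.31 and 23 genes called lower against 3 higher.

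The 2 genes of highest level on chromosome 13 both fell. Hnrnpk, which encodes an abundant RNA-binding protein, was at 858, 929 and 821 CPM in the KO libraries against 1148, 1063 and 1105 CPM in the WT ones (log2 -0.35). Tnpo1, which encodes a nuclear import receptor, was at 507, 560 and 480 CPM in the KO libraries against 751, 744 and 716 CPM in the WT ones (log2 -0.51). Neither gene overlapped between genotypes. Other genes of the chromosome changed far more: Nid1, which encodes the basement membrane protein nidogen, was at 0.630, 1.13 and 0.490 CPM in the KO libraries against 29.0, 29.2 and 26.4 CPM in the WT ones (log2 -5.21). Fgd3, which encodes an activator of the small GTPase Cdc42, fell from 12.7 ± 1.42 to 0.785 ± 0.222 CPM (-3.99). The greatest rises were in Nlrp4f, a gene of the NLR family, from 3.07 ± 0.244 to 16.1 ± 0.395 CPM (2.39), and Nr2f1, which encodes an orphan nuclear receptor, from 2.40 ± 0.250 to 8.16 ± 0.228 CPM (1.76).

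The 2 windows of 5 or more genes above the reference on chromosome 13 both lay in the stretch from 60 to 68 Mb, which also holds a cluster of zinc finger genes. The window from 62 to 64 Mb had a median of 0.32 over 11 genes, with 0.21, 0.13 and 0.29 in KO replicates 1 to 3, and the window from 66 to 68 Mb had 0.20 over 22 genes. Genes of this kind encode DNA-binding proteins, many with a KRAB domain that recruits silencing factors, and they arose as tandem copies. Over the stretch, 22 protein-coding Zfp genes had a median of 0.39, with 10 called higher and 1 lower. The 27 other genes had a median of -0.16, with 7 called higher and 14 lower. Over all genes, 31.0% were called higher and 31.6% lower. The Zfp genes gave 0.30, 0.27 and 0.40 in KO replicates 1 to 3 and -0.06 to 0.09 in WT libraries. The stretch and the Zfp genes named in it were chosen after their values were seen. Outside it, the 373 genes of chromosome 13 had a median of -0.34.

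Within the stretch, Zfp808 was at 13.8, 11.5 and 11.3 CPM in the KO libraries against 10.2, 7.62 and 9.72 CPM in the WT ones (log2 0.41), and all KO values were above all WT values. Zfp729a rose from 8.52 ± 0.607 to 11.2 ± 0.682 CPM (0.39). Zfp369 was at 23.7, 18.6 and 23.6 CPM in the KO libraries against 12.7, 14.4 and 14.2 CPM in the WT ones (0.68). Of the 22 Zfp genes, 11 were not called, and 4 of these had ratios below 0, among them Zfp493 (-0.18). Zfp759, called higher, had means of 0.903 CPM in WT and 2.07 CPM in KO. It passed the filter of 1 CPM through the KO libraries and had to be higher there. The gene called lower was Zfp367, which encodes a zinc finger factor linked to the cell cycle. It fell from 153 ± 1.02 to 104 ± 14.7 CPM (-0.56). Other genes of the window from 62 to 64 Mb included Ercc6l2, which encodes a DNA repair protein, at 41.7 ± 0.897 CPM in the KO libraries against 59.8 ± 3.02 CPM in the WT ones (-0.52), and the Hedgehog receptor gene Ptch1, at 36.3 ± 3.15 and 33.5 ± 1.63 CPM (0.11), which did not pass the test. Tandem copies are alike in sequence, so reads can be assigned to the wrong copy, and the counting of reads with several matches was not given in the sources used here.

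Zfp genes also stood above their neighbours on chromosomes 5, 7 and 14. On the 14 other autosomes, 171 protein-coding Zfp genes had a median of 0.28, with 86 called higher and 17 lower, beside 31.0% and 31.6% of all genes. Among genes that passed the filter, the difference of Zfp genes was thus not limited to the 5 chromosomes. Medians were 0.41 for 82 Zfp genes and 0.08 for the other 892 genes of chromosome 7, 0.17 for 16 and -0.18 for the other 853 genes of chromosome 5, and 0.81 for 3 and -0.09 for the other 399 genes of chromosome 14. On chromosome 18 the medians were 0.13 for 10 Zfp genes and 0.15 for the others. Without Zfp genes anywhere, chromosome 7 stood 0.07 above the reference instead of 0.11. Most Zfp genes had low levels, and genes of 1 to 5 and of 5 to 20 CPM on the 14 other autosomes had medians of 0.16. No comparison of Zfp genes with other genes was made at the same level, so part of the difference may go with level. Zfp genes that passed the filter of 1 CPM only through the KO libraries had to be higher there. Their number among the Zfp genes of whole chromosomes is not given here.

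**Figure D5:**
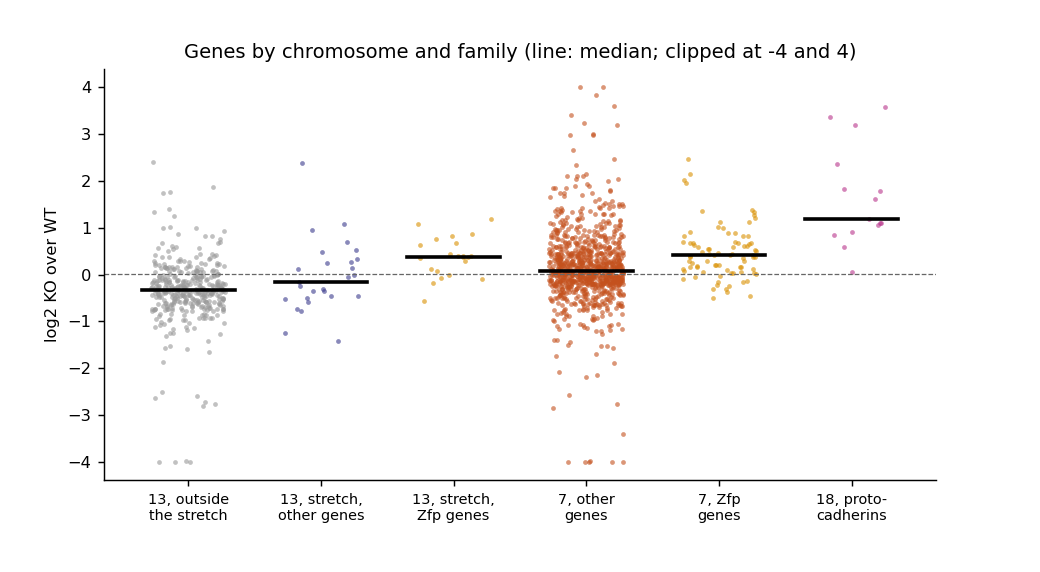
Fitted log2 KO over WT of single genes (dots, spread sideways at random) with group medians as black lines: chromosome 13 outside the stretch from 60 to 68 Mb, other genes and Zfp genes in that stretch, other genes and Zfp genes of chromosome 7, and clustered protocadherins of chromosome 18. Values past 4 in either direction are drawn at 4. The medians go from -0.34 to 0.39 across the 3 groups of chromosome 13, and the protocadherins are at 1.19.

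Chromosome 7 was a mixture of high and low windows. From 2 to 32 Mb, 10 windows of 5 or more genes in a row were above the reference, and from 108 to 120 Mb, 6 in a row were below. The highest window of 5 or more genes, from 6 to 8 Mb, had a median of 0.58 over 17 genes. Of these, 11 were called higher and 2 lower, and the window gave 0.49, 0.35 and 0.56 in KO replicates 1 to 3. The window from 44 to 46 Mb, among the richest in genes, had a median of 0.36 over 71 genes, with 41 called higher and 8 lower. The lowest window, from 48 to 50 Mb, had a median of -0.50 over 5 genes and gave -0.59, -0.33 and -0.57 in KO replicates 1 to 3. Among its genes, E2f8, which encodes a cell-cycle repressor, fell from 109 ± 7.58 to 74.0 ± 3.96 CPM (-0.55), and the arginine methyltransferase gene Prmt3 fell from 61.2 ± 3.73 to 43.3 ± 4.58 CPM (-0.50).

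The genes of highest level in the window from 6 to 8 Mb did not share its median. Peg3, an imprinted gene expressed from the paternal copy, was at 1039, 1021 and 1017 CPM in the KO libraries against 1026, 1019 and 1079 CPM in the WT ones (log2 -0.02), with overlap. Its imprinted neighbour Zim1 was at 440, 403 and 433 CPM in the KO libraries against 311, 311 and 334 CPM in the WT ones (0.42). The chloride transporter gene Clcn4 fell from 62.1 ± 2.97 to 55.8 ± 1.83 CPM (-0.15). In that window 10 Zfp genes had a median of 1.06, with 9 called higher and 0 lower, and the 7 other genes had -0.02, with 2 higher and 2 lower. Over all genes, 31.0% were called higher and 31.6% lower. Zfp667 (0.689 CPM in WT, 3.07 CPM in KO) and Zfp418 (0.888 and 2.27 CPM) had WT means under 1 CPM. These genes passed the filter of 1 CPM through the KO libraries and had to be higher there. Zfp773, chosen after its values were seen, was at 8.73, 6.85 and 11.1 CPM in the KO libraries against 2.37, 1.92 and 2.22 CPM in the WT ones (2.03).

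Across the boundary of chromosome 7 at 102 Mb, Inppl1, which encodes the phosphatase SHIP2, rose from 183 ± 1.58 to 241 ± 16.3 CPM (0.40) in the window before it. In the window after it, Rrm1, which encodes the large subunit of ribonucleotide reductase, was at 437, 493 and 410 CPM in the KO libraries against 686, 668 and 642 CPM in the WT ones (-0.57), and the nuclear pore gene Nup98 fell from 238 ± 3.33 to 211 ± 15.2 CPM (-0.17). The gene of highest level on the chromosome, the translation factor gene Eif4g2 at 110 to 112 Mb, was at 1553, 1783 and 1432 CPM in the KO libraries against 2113, 2059 and 2048 CPM in the WT ones (-0.38). The collagen chaperone gene Serpinh1 was at 1409 ± 35.4 CPM in the KO libraries against 1320 ± 32.1 CPM in the WT ones (0.09) and did not pass the test.

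Single genes of chromosome 7 changed far more than its windows. Fosb, which encodes a subunit of the transcription factor AP-1, was at 163, 322 and 77.6 CPM in the KO libraries against 1.46, 1.21 and 6.95 CPM in the WT ones (log2 5.82), and its KO values differed among themselves by several fold. Ypel3 was at 10.5, 5.38 and 14.2 CPM in the KO libraries against 1.06, 0.738 and 1.36 CPM in the WT ones (3.23). Hdgfl3 was at 0.315, 0.147 and 0.361 CPM in the KO libraries against 28.8, 30.9 and 29.2 CPM in the WT ones (-6.75), and Ctsc, which encodes the lysosomal protease cathepsin C, fell from 7.04 ± 0.909 to 0.105 ± 0.0690 CPM (-6.03). Among 14 measured imprinted genes of the chromosome, 5 were called higher and 4 lower, beside 31.0% and 31.6% of all genes. Cd81, a tetraspanin gene, rose from 135 ± 2.81 to 173 ± 18.7 CPM (0.36), and Nap1l4, a histone chaperone gene, fell from 209 ± 0.645 to 164 ± 11.1 CPM (-0.35). Of 26 kallikrein genes, which encode secreted serine proteases and lie together, 3 were measured and 2 were called higher. Klk14 was at 308, 245 and 387 CPM in the KO libraries against 95.8, 91.7 and 110 CPM in the WT ones (1.66).

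Chromosome 5 was below the reference in most of its windows, and lower in its first 64 Mb than after. The 5 windows above it among those of 5 or more genes all lay from 66 Mb on, and their medians were at most 0.14. Before them, 15 windows of 5 or more genes in a row, from 2 to 66 Mb, lay under the reference. Of the 252 genes before 64 Mb, 138 were called lower and 37 higher (54.8% and 14.7%), and of the 617 after it, 256 and 125 (41.5% and 20.3%). The window with Chchd2, from 128 to 130 Mb, had a median of -0.30 over 20 genes, with -0.29, -0.26 and -0.20 in KO replicates 1 to 3. That value lay within the range of its chromosome.

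The lowest window of chromosome 5 with 5 or more genes, from 38 to 40 Mb, had a median of -0.67 over 8 genes. Of these, 6 were called lower and 0 higher, and the window gave -0.74, -0.46 and -0.55 in KO replicates 1 to 3. Wdr1, which encodes a cofactor of actin filament disassembly, was at 227, 263 and 235 CPM in the KO libraries against 500, 469 and 442 CPM in the WT ones (log2 -0.96). Lyar, which encodes a nucleolar protein of ribosome production, was at 103, 139 and 93.4 CPM in the KO libraries against 239, 241 and 225 CPM in the WT ones (-1.07). Neither overlapped between genotypes, and Tmem128 fell from 43.7 ± 0.673 to 32.0 ± 0.930 CPM (-0.45). The highest window of 5 or more genes, from 66 to 68 Mb, had a median of 0.14 over 8 genes, yet its 3 genes of highest level were all lower. The transmembrane protein gene Tmem33 fell from 184 ± 1.82 to 154 ± 7.60 CPM (-0.26). The zinc transporter gene Slc30a9 fell from 77.5 ± 4.10 to 64.6 ± 3.09 CPM (-0.26) and Bend4 from 111 ± 1.31 to 100.3 ± 4.07 CPM (-0.14).

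Next to the boundary of chromosome 5, Rell1 fell from 50.6 ± 1.80 to 43.9 ± 2.38 CPM (-0.20) before 64 Mb. After it, the cohesin regulator gene Pds5a fell from 375 ± 4.13 to 323 ± 21.5 CPM (-0.22), and Rfc1, which encodes the large subunit of the DNA clamp loader, was at 190 ± 2.78 CPM in the KO libraries against 190 ± 3.89 CPM in the WT ones (0.00). The genes of highest level on the chromosome were lower in KO as well. The uroplakin gene Upk3b was at 1447, 1447 and 1667 CPM in the KO libraries against 2183, 2149 and 2307 CPM in the WT ones (-0.54). The greatest rises on the chromosome were those of Mettl27, from 2.19 ± 0.235 to 15.9 ± 6.49 CPM (2.86), and Ccng2, which encodes cyclin G2, from 3.69 ± 1.19 to 26.8 ± 7.99 CPM (2.85). Of 10 Cxcl chemokine genes, which lie side by side, 3 were measured: Cxcl5 rose from 69.5 ± 4.51 to 133 ± 3.53 CPM (0.93), Cxcl3 rose from 3.39 ± 1.71 to 6.86 ± 1.19 CPM (1.02), and Cxcl1 fell from 16.2 ± 2.46 to 4.31 ± 0.704 CPM (-1.91).

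Chromosome 14 had the mildest shift of the 3 low chromosomes. Its lowest window of 5 or more genes, from 98 to 100 Mb, had a median of -0.60 over 5 genes. Of these, 4 were called lower, and the window gave -0.58, -0.56 and -0.46 in KO replicates 1 to 3. Dis3, which encodes an exosome ribonuclease, was at 104, 126 and 100.2 CPM in the KO libraries against 192, 180 and 184 CPM in the WT ones (log2 -0.75). Mzt1, which encodes a small protein of the microtubule-nucleating complex, fell from 60.7 ± 1.95 to 39.1 ± 1.34 CPM (-0.63), and its neighbour Bora, which encodes an activator of Aurora A kinase, fell from 54.1 ± 0.808 to 41.2 ± 1.19 CPM (-0.39). The longest run under the reference was of 8 windows from 20 to 48 Mb.

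The highest window of chromosome 14, from 50 to 52 Mb, had a median of 0.26 over 13 genes, with 7 called higher and 2 lower, and gave 0.25, 0.20 and 0.25 in KO replicates 1 to 3. The DNA repair endonuclease gene Apex1 was at 91.9, 105 and 88.9 CPM in the KO libraries against 94.6, 94.6 and 98.4 CPM in the WT ones (-0.01), with overlap. Pip4p1, a phosphoinositide phosphatase gene that overlaps it on the other strand, rose from 40.0 ± 2.32 to 51.8 ± 3.31 CPM (0.37), and the strand setting of the counts was not given in the sources used here. Parp2, another DNA repair gene, fell from 45.3 ± 0.601 to 40.6 ± 1.05 CPM (-0.16). Elsewhere on the chromosome, the abundant genes Tpt1 (836 ± 32.0 CPM in KO, 868 ± 22.5 CPM in WT, -0.05) and Rps24 (701 ± 64.2 and 762 ± 37.9 CPM, -0.12) did not pass the test. Pck2, which encodes the mitochondrial form of phosphoenolpyruvate carboxykinase, was at 79.2, 67.0 and 79.6 CPM in the KO libraries against 14.8, 13.3 and 14.8 CPM in the WT ones (2.39), while the membrane matrix metalloproteinase gene Mmp14 fell from 6.92 ± 0.433 to 0.147 ± 0.0295 CPM (-5.51).

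Chromosome 18 was divided in the main analysis. When further boundaries were sought with neighbouring medians at least 0.2 apart, chromosome 18 fell into 3 pieces and the other 4 chromosomes were each left as 1 piece. The limit of 0.2 decides this: chromosome 7 came close to it, with a step of -0.19. Held at 34 Mb, the step of chromosome 18 was 0.174 with genes of at least 5 CPM. It was 0.197 without genes changed 4-fold and 0.195 without Zfp genes and protocadherins, all under the limit. From 2 to 18 Mb its 48 genes had a median of 0.04, from 20 to 34 Mb its 42 genes had -0.17, and from 34 to 92 Mb its 243 genes had 0.23. The first 2 pieces held 5 windows of 5 or more genes each, the fewest the rule allowed. The place of the cut between them was thus set by the rule and does not locate a change. A run of 4 such windows below the reference, from 12 to 26 Mb, lay across it. In KO replicates 1 to 3 the first piece was at 0.05, 0.08 and 0.02, the second at -0.19, -0.12 and -0.21, and the third at 0.21, 0.20 and 0.18. In the third piece 126 genes were called higher and 48 lower (51.9% and 19.8%), and in the second 12 and 20 (28.6% and 47.6%). The third piece was not even: 12 of its 16 windows of 5 or more genes were above the reference, and those from 42 to 44, 46 to 48, 52 to 54 and 80 to 82 Mb were below it.

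The lowest window of chromosome 18, from 20 to 22 Mb, had a median of -0.57 over 7 genes and gave -0.63, -0.30 and -0.62 in KO replicates 1 to 3. Dsg2, which encodes the desmosomal cadherin desmoglein 2, was at 55.3, 49.3 and 34.6 CPM in the KO libraries against 143, 150 and 150 CPM in the WT ones (log2 -1.67). B4galt6, which encodes a galactosyltransferase of glycolipid synthesis, was at 6.93, 6.09 and 6.14 CPM in the KO libraries against 28.5, 26.2 and 26.6 CPM in the WT ones (-2.09). Trappc8, a membrane traffic gene of the same window, was at 126 ± 4.18 CPM in the KO libraries against 125 ± 0.758 CPM in the WT ones (0.01), so the window's genes did not move alike.

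The highest window of chromosome 18 with 5 or more genes, from 36 to 38 Mb, had a median of 0.57 over 42 genes. Of these, 29 were called higher and 7 lower, and the window gave 0.42, 0.31 and 0.57 in KO replicates 1 to 3. It holds the clustered protocadherins, cell adhesion genes best known from neurons, where each cell uses few of them. Of 57 such genes, 15 passed the filter of 1 CPM, all in this window, with a median of 1.19. Of the 15, 14 were called higher, beside 31.0% of all genes. In 7 of the 15 the WT mean was under 1 CPM and in 0 the KO mean was, so those 7 passed through the KO libraries and had to be higher there; the count and the median describe the genes that passed only. Pcdhb22 was at 6.50, 5.80 and 5.59 CPM in the KO libraries against 1.17, 1.27 and 1.03 CPM in the WT ones (2.36), and Pcdhb20 at 6.10, 4.94 and 4.69 CPM in the KO libraries against 1.89, 1.24 and 1.28 CPM in the WT ones (1.83). Pcdhgc3, the member of highest level, was at 29.1, 28.8 and 32.0 CPM in the KO libraries against 29.0, 27.2 and 30.2 CPM in the WT ones (0.06), with overlap. Members of the gamma cluster share constant exons, so reads of those exons could be split among them. The 27 other genes of the window had a median of 0.26, and the piece from 34 to 92 Mb without protocadherins had 0.20 over 228 genes.

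The 2 genes of highest level on chromosome 18 both lie in its high piece and rose. Hspa9, which encodes the mitochondrial chaperone mortalin, was at 1934, 2185 and 1855 CPM in the KO libraries against 1750, 1749 and 1718 CPM in the WT ones (log2 0.20). Atp5a1, which encodes a catalytic-core subunit of ATP synthase, was at 1501, 1560 and 1567 CPM in the KO libraries against 1317, 1266 and 1265 CPM in the WT ones (0.27). Neither gene overlapped between genotypes. In the same piece the translation termination factor gene Etf1 fell from 804 ± 19.8 to 614 ± 88.6 CPM (-0.39), the histidyl-tRNA synthetase gene Hars fell from 229 ± 10.1 to 190 ± 17.4 CPM (-0.26), and the alpha-catenin gene Ctnna1 was at 547 ± 9.94 CPM in the KO libraries against 515 ± 20.2 CPM in the WT ones (0.09), which did not pass the test. Just before the boundary, Stard4, which encodes a cholesterol transfer protein, rose from 213 ± 12.4 to 317 ± 26.9 CPM (0.57), and Wdr36, which encodes a ribosome biogenesis protein, fell from 187 ± 2.71 to 147 ± 18.2 CPM (-0.35).

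Complexes whose subunits are spread over the genome were read by chromosome. Their counts of called genes stand beside 31.0% called higher and 31.6% called lower over all genes. The cytosolic ribosome had a median of -0.15 over 53 genes on the 14 other autosomes, with 25 called lower and 0 higher. On chromosome 18 both of its measured genes rose: Rps14 was at 870, 904 and 872 CPM in the KO libraries against 791, 743 and 726 CPM in the WT ones (0.23), and Rpl17 at 740, 819 and 716 CPM in the KO libraries against 638, 634 and 655 CPM in the WT ones (0.24). On chromosome 5 all 5 measured genes fell, with a median of -0.21, among them Rpl6, from 1317 ± 47.0 to 1078 ± 62.9 CPM (-0.29), and Rplp0, from 1375 ± 23.1 to 1234 ± 68.6 CPM (-0.16). On chromosome 7, 8 of 14 were called lower and 0 higher, and 12 lay below the reference, with a median of -0.15. The single gene of chromosome 13, Rps23, fell from 409 ± 11.6 to 296 ± 26.1 CPM (-0.46). Scaled by library totals, the medians were -0.03 on chromosome 7 and -0.03 on the other autosomes.

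The mitochondrial ribosome had a median of -0.21 over 59 genes on the 14 other autosomes. Of these, 32 were called lower and 3 higher, beside 31.6% and 31.0% of all genes. All 5 measured genes of chromosome 13 fell, with a median of -0.48, and all 3 of chromosome 14 fell, with -0.62. Mrpl32 was at 20.5, 21.3 and 19.3 CPM in the KO libraries against 30.6, 28.7 and 31.5 CPM in the WT ones (-0.57), and Mrpl52 fell from 22.6 ± 0.951 to 13.6 ± 1.61 CPM (-0.74). On chromosome 5, 3 of 4 were called lower, among them Mrpl33, from 98.2 ± 4.69 to 49.0 ± 2.32 CPM, and all 4 lay below the reference. On chromosome 7, 1 of 6 was called lower and 5 lay below the reference, with a median of -0.14. The respiratory chain genes had a median of -0.01 over 59 genes on the other autosomes, where 7 were called higher and 8 lower, and this median was 0.11 with library totals. On chromosome 13, 4 of 6 were called lower and 0 higher, and 5 lay below the reference, with a median of -0.32. On chromosome 5, 1 of 3 was called lower and all 3 lay below the reference, with -0.23. On chromosome 7, 1 of 5 was called higher and 0 lower, and 2 lay below the reference, with a median of 0.03. On chromosome 18, 1 of 2 was called higher and 0 lower, and 0 lay below the reference, with 0.22. Uqcrfs1, which encodes the Rieske iron-sulfur subunit of complex III, fell from 117 ± 6.67 to 80.0 ± 3.69 CPM (-0.55), and Cox7c, a cytochrome c oxidase subunit gene, fell from 85.0 ± 3.43 to 69.0 ± 2.23 CPM (-0.30).

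Other lists were small on these chromosomes. Over all genes, 31.0% were called higher and 31.6% lower, and nothing is read from counts over so few genes. Of proteasome genes, 1 of 10 was called higher and 4 lower, against 11 and 1 of 24 on the other autosomes. Of aminoacyl-tRNA synthetase genes, which charge transfer RNAs with amino acids, 4 of 10 were higher and 2 lower, against 5 and 5 of 25 elsewhere. Nars, on chromosome 18, was at 731, 832 and 688 CPM in the KO libraries against 454, 455 and 444 CPM in the WT ones (0.74), and Cars, on chromosome 7, at 146, 157 and 134 CPM in the KO libraries against 82.5, 82.5 and 82.1 CPM in the WT ones (0.82). Both lay beyond the medians of their chromosomes. In the histone cluster of chromosome 13, 3 of 52 genes were measured, 1 of them, Hist1h1c, lower (-0.39). Of Oas genes on chromosome 5, 1 of 11 was measured, Oasl2, which rose from 0.892 ± 0.126 to 2.42 ± 0.964 CPM (1.44). Its WT mean was under 1 CPM, so it passed the filter through the KO libraries and had to be higher there. Of ribonuclease genes on chromosome 14, 1 of 13 was measured, Rnase4, which fell from 12.1 ± 1.40 to 8.14 ± 0.591 CPM (-0.57), and none of 5 Gbp genes or 15 granzyme and chymase genes was.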

How the data were processed

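Counts were raw whole numbers of reads per Ensembl gene, deposited by the authors with no normalization. STAR 2.5.2b, Subread 1.5.2, Trimmomatic 0.36, bcl2fastq 2.17 and DESeq2 are named, with GRCm38 and no order, per the submitters' processing notes; the annotation release was not given in the sources used here. Positions came from GENCODE M21, to which 49056 of 49315 gene IDs matched. Counts of the 6 libraries were fitted with edgeR 4.0.16 in R 4.3.3 (filterByExpr at a minimum of 10, TMM, robust quasi-likelihood, genotype only), which left 16033 genes, and were checked on simulated data. Of 12762 genes with mean CPM of 1 or more, 21 had no position and 1 was not fitted. Library values are log2 ratios of CPM plus 0.5 over the mean of the WT libraries (for a WT library, of the others). Steps needed 5 windows of 5 genes and 30 genes on each side; steps held at a fixed boundary were added after the values were seen. Named genes are Chchd2 and, per chromosome, the 2 of highest level, the 2 greatest rises and 2 greatest falls among called genes of 5 CPM or more without overlap, up to 3 of highest level in each window described and up to 4 of highest level per list; a choice was made among these, and others are marked. The members, lists and rules were chosen with earlier results of these data known. The alternatives, which include DESeq2 1.42.0 and limma voom (limma 3.58.1), numbered 25, of which 2 (leaving out Zfp genes and protocadherins) were chosen after seeing the data.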

Additional observations from a re-analysis of the deposited data

How the results depend on the processing

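The direction of each relative chromosome median was the same under all 25 alternatives. Those that changed only window size, window start, gene placement or genes per window kept each chromosome's genes and could not change it. Those that changed only the scaling moved a chromosome and its reference nearly alike. With genes of at least 5 CPM these medians were -0.19 on chromosome 5, 0.0653 on 7, -0.0775 on 14 and 0.10 on 18; with at least 0.2 CPM they were 0.13 on 7, -0.11 on 14 and 0.13 on 18. Protein-coding genes gave -0.20 on chromosome 5, ratios of mean CPM gave 0.13 on 18, and leaving out Zfp genes gave 0.0718 on 7 and 0.14 on 18, or 0.12 on 18 without protocadherins too. Leaving out 1 library gave -0.11 to -0.10 on chromosome 14 and 0.12 to 0.14 on 18. Windows past 0.2 below numbered 11 on chromosome 5 and 17 on 13 with windows of 5 Mb and 13 on chromosome 14 with windows of 1 Mb; those above numbered 22 on chromosome 7 with 1 Mb and 3 on 18 with 5 Mb. The step of chromosome 5 was 0.14 (5 CPM) and 0.24 (0.2 CPM, at 22 Mb). That of chromosome 7 was -0.12 (5 CPM), -0.17 (ratios of mean CPM), -0.15 (protein-coding), -0.18 (without genes changed 4-fold) and -0.16 (without Zfp genes, with or without protocadherins), and -0.20 to -0.17 with 1 library left out. That of chromosome 18 was 0.28 (protein-coding, at 30 Mb) and 0.19 (without genes changed 4-fold, at 68 Mb); held at 34 Mb these were 0.24 and 0.20. That of chromosome 14 was 0.0555 (0.2 CPM), and it went from -0.11 to 0.0889 with 1 library left out, reversed without KO replicate 1 at another boundary (86 Mb); that of chromosome 13 went from -0.0875 to 0.0839, reversed at 0.0839 without KO replicate 2 at another boundary (52 Mb). Neither reversed at its own boundary. The cause of these changes was not tested. Replicate numbers were not shown to pair the libraries (correlations of same-numbered deviations -0.101, 0.097 and 0.071). With the replicate block, 841 genes were called higher and 1099 lower, and the step of chromosome 18 was 0.23. Window medians over few genes, and the low levels of most Zfp genes, limit precision.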
